A study of Mus musculus with 6 samples.

Results

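The genes described here are 8 transcription factors that specify and maintain hepatocytes: Foxa1, Foxa2, Foxa3, Onecut1, Onecut2, Cebpa, Prox1 and Gata4. They were taken by name. A probe set, the group of short probes on the array that reads 1 transcript, was used where its annotation names exactly 1 of these genes, which gave 14 of the 34945 probe sets that name a single gene. All 8 of the 8 factors were measured, among 18193 genes. The brightest probe set by its mean over the arrays stands for a gene, and the other probe sets are given beside it.

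Liver RNA was read on 6 Affymetrix mouse arrays, all from male C57BL/6J mice aged 8 weeks on normal chow. There were 2 arrays from fed wild-type mice, 2 from wild-type mice fasted for 24 h and 2 from Cnot3+/- mice (titled Cnot3het) fasted for 24 h. The protein made from Cnot3 belongs to CCR4-NOT, the main deadenylase of the cell, and the labels do not describe the mutated allele. Fed Cnot3+/- mice are not among the samples, so genotype was compared in the fasted state and, together with fasting, against fed wild-type liver.

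Hepatocytes are held in their state by a network of transcription factors that activate each other's genes and bind side by side at liver enhancers. The Foxa proteins, also called hepatocyte nuclear factor 3, bind DNA through a forkhead domain and can open compacted chromatin, which is why they are called pioneer factors. Onecut1 (hepatocyte nuclear factor 6) and its relative Onecut2 join a cut domain to a homeodomain, Cebpa is a leucine zipper protein, Prox1 a homeodomain protein that mostly represses, and Gata4 a zinc finger protein. In adult liver this network drives genes of albumin secretion, glucose output and ammonia removal, and several of its members act in fasting metabolism.

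The values are log2 levels made by the authors with RMA. Array medians lay between 5.59 and 5.64, and the median gene had a level of 6.74. All 8 factors were brighter than the median gene. Replicate arrays correlated across genes at 0.993 to 0.995; genes are not independent replicates. The brighter Cnot3 probe set read 9.27 and 9.32 in fasted wild-type liver and 9.40 and 9.16 on the arrays labelled Cnot3+/-, a difference of -0.01 (95% confidence interval -0.33 to 0.30). The labels do not say whether these probes lie in the part that was removed, so the genotype is given as labelled. Albumin, transthyretin and 7 other hepatocyte markers averaged between 14.47 and 14.64 on every array. With 2 arrays a group the precision of every test is low; the labels call them biological replicates.

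**Figure D1:**
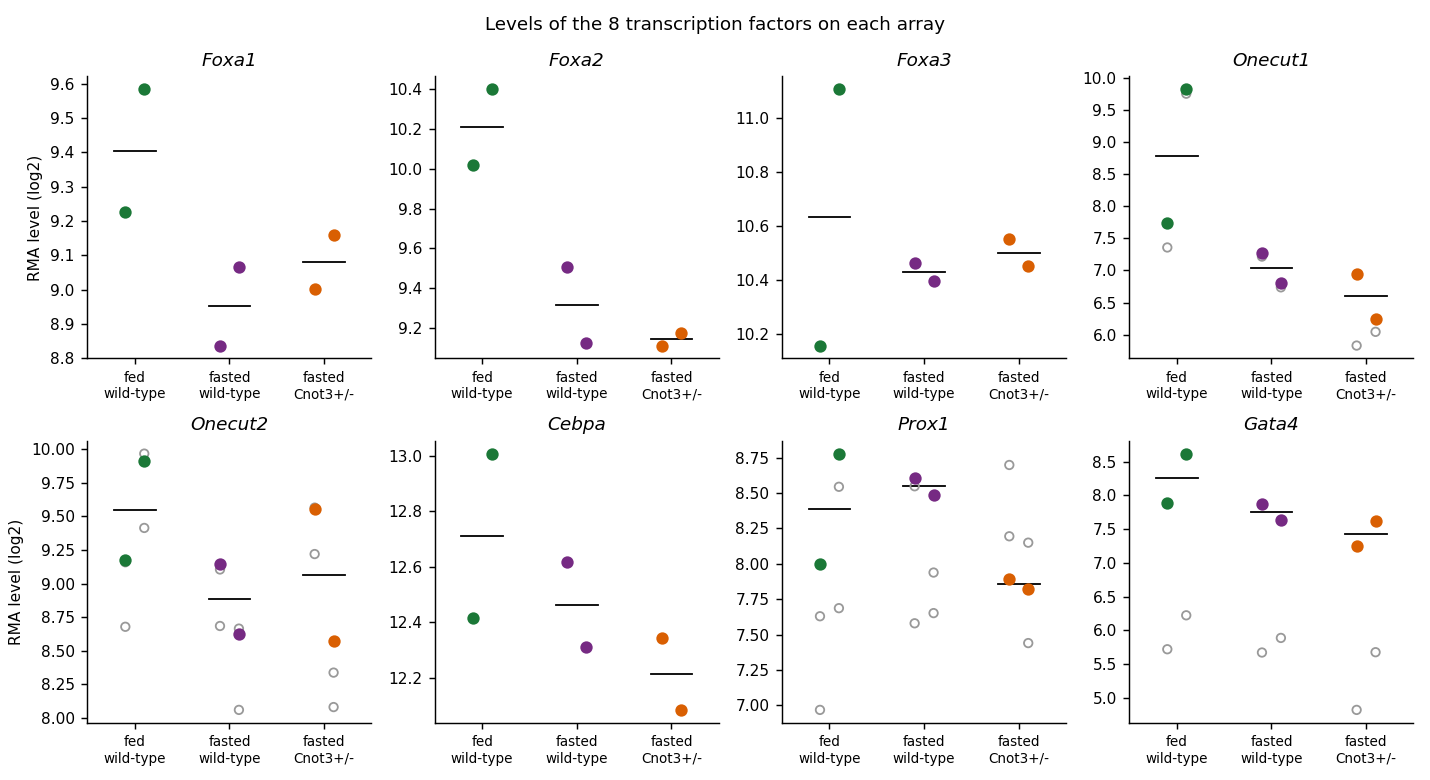
RMA level (log2) of each factor on the 6 arrays, by group. Filled points are the main probe set, bars its group mean, and grey circles other probe sets of the gene; the second fed array (right-hand green point) lies above the first in every panel.

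Foxa2 was the single factor of the 8 that passed the test on fasting. Its mRNA fell from fed to fasted wild-type liver and from fed to fasted Cnot3+/- liver. The other 7 factors did not pass the test, although 6 of them had lower means after the fast, beside 45.3% of all genes. Over the 8 factors the median log2 difference was -0.48, against 0.02 over all genes. This summary rested on the fed arrays: leaving out the first gave a median of -0.77 with all 8 factors lower, and leaving out the second gave -0.21 with 5 of 8 lower. In bulk liver, fewer cells of a type and less RNA per cell cannot be told apart. The call was 1 of 8 factors, where 5.02% of all genes were called (3.15% lower and 1.87% higher) in limma's test at a Benjamini-Hochberg adjusted p under 0.05. An unadjusted p under 0.05 was found for 3 of the 8, Foxa1, Foxa2 and Onecut1, and for 18.9% of all genes. In 5 of the 8 the fasted wild-type values lay wholly below the fed values, as in 23.7% of all genes.

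Foxa2 is needed, together with Foxa1, for the liver to form, and in the adult mouse it is known for its part in the fasting programme of fatty acid oxidation. Foxa2 read 10.02 and 10.40 in fed, 9.51 and 9.12 in fasted wild-type and 9.11 and 9.18 in fasted Cnot3+/- liver. Both fed arrays lay above all 4 fasted arrays, and the fasted groups overlapped. From fed to fasted wild-type liver Foxa2 fell by 0.89 on the log2 scale (SE 0.18, adjusted p = 0.037), from 10.21 ± 0.27 to 9.32 ± 0.27 (mean ± SD, n = 2 arrays each), which is 53.8% of the fed level. The call was lost when the test was adjusted over all 45037 probe sets in place of 1 per gene (adjusted p = 0.0712). It was also lost when any 1 of the 4 wild-type arrays was left out, with differences from -1.09 to -0.70. Leaving out the fed arrays (1, then 2) gave an adjusted p of 0.0514 and 0.161, and leaving out the fasted wild-type arrays in the same order gave 0.0965 and 0.2.

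RefSeq lists 3 promoter windows for Foxa2 on GRCm38.p6, each from 250 bases before to 50 after an annotated start. Windows of 6 of the 8 factors, 9 in all, were used, and none of Onecut2 or Gata4. Before the search any factor window on 1 chromosome was left out, so absence here does not mean that RefSeq lists none. Both strands were searched for the core words of the factors' own binding motifs. These were TGTTTAC or TATTTAC or TGTTTGC or TATTGAC for forkhead proteins, ATTGAT for Onecut proteins, TTGCNNAA for C/EBP and AGATAA for GATA proteins. Foxa2 is shown because it is the factor that passed the test, and 2 of its windows hold such words, given in capitals. In the first, at chr2:148046920-148047219 on the minus strand, the Onecut word lies at bases -213 to -208 from the start; 7.54% of all 32851 promoter windows hold that word. In the window of the third start, at chr2:148045415-148045714 on the minus strand, the GATA word lies at -183 to -178 (11.2% of all windows) and the forkhead word TATTGAC at -158 to -152 (1.41%).
Foxa2, first window: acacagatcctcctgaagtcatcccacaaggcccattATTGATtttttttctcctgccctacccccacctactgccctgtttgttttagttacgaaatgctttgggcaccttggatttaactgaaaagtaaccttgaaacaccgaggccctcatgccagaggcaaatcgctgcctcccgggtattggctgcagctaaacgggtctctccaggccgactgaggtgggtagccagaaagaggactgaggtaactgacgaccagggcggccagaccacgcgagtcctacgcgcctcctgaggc
Foxa2, window at the third start: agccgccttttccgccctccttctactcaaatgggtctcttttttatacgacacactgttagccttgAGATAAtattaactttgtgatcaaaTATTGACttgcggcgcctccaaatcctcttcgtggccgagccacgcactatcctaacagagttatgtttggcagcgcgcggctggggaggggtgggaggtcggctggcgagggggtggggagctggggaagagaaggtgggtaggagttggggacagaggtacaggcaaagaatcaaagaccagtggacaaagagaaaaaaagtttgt
None of the words overlap another in these windows. Foxa1 has 1 window, at chr12:57546062-57546361 on the minus strand, with the forkhead word TGTTTAC on the opposite strand at -141 to -135 (3.65% of all windows), shown here as the window of Foxa2's closest partner.
Foxa1: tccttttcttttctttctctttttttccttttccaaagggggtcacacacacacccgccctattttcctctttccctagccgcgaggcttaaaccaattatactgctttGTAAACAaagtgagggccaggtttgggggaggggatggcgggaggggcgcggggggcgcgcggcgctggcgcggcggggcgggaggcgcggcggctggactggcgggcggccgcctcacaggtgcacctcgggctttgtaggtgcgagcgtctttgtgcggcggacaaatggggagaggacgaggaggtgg
The windows of Onecut1, Cebpa and Foxa3 hold none of these words, and 1 of the 2 Prox1 windows holds TGTTTGC (5.07% of all windows). A word in a window is a description of its letters; no binding was measured.

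Foxa1 and Foxa3 did not pass the test. Foxa1, whose targets largely overlap with those of Foxa2, read 9.23 and 9.58 in fed, 8.84 and 9.07 in fasted wild-type and 9.003 and 9.16 in fasted Cnot3+/- liver. The fed arrays were again above all 4 fasted arrays, by a smaller step: the fasting difference was -0.45 (SE 0.16, 95% interval -0.83 to -0.07, adjusted p = 0.184). Foxa3, which in mice helps to keep up hepatic glucose transport during a long fast, read 10.16 and 11.11 on the fed arrays. Its fasted values, 10.46 and 10.40 in wild-type and 10.55 and 10.45 in Cnot3+/- liver, lay between the fed ones. Its fasting difference of -0.20 (SE 0.28, interval -0.85 to 0.44, adjusted p = 0.777) was 0.27 without fed replicate 2.

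Onecut1, which directs bile duct formation and liver glucose genes, had the lowest fasting estimate among the 8 factors with all 6 arrays, and the widest error; with fed replicate 2 left out, Foxa2 was lowest. Its brighter probe set read 7.73 and 9.82 in fed, 7.28 and 6.80 in fasted wild-type and 6.94 and 6.24 in fasted Cnot3+/- liver. All 4 fasted arrays were below both fed arrays, but fed replicate 1 stood much closer to the fasted arrays than to fed replicate 2. The fasting difference was -1.73 (SE 0.60, interval -3.15 to -0.32) and did not pass (adjusted p = 0.173). Without fed replicate 1 it was -2.78 and passed (adjusted p = 0.0177); without fed replicate 2 it was -0.69 (adjusted p = 0.413). The other Onecut1 probe set read 7.36 and 9.75 fed, 7.22 and 6.74 fasted wild-type, and 5.83 and 6.04 Cnot3+/-, in the same order of groups.

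Onecut2, whose role in the developing liver overlaps with that of Onecut1, was less divided by feeding. Its main probe set read 9.17 and 9.92 in fed, 9.14 and 8.62 in fasted wild-type and 9.55 and 8.57 in fasted Cnot3+/- liver. The fasted wild-type arrays lay just below the fed ones, while the first Cnot3+/- array lay between them. The fasting difference was -0.66 (SE 0.37, interval -1.53 to 0.20, adjusted p = 0.402), and without fed replicate 2 it was -0.29. All 3 Onecut2 probe sets put the first Cnot3+/- array about a log2 unit above the second: 9.55 and 8.57, 9.57 and 8.34, and 9.22 and 8.08.

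Cebpa, which sustains gluconeogenic and urea cycle genes and holds hepatocytes out of the cell cycle, read 12.42 and 13.01 on the fed arrays. It read 12.62 and 12.31 in fasted wild-type and 12.34 and 12.08 in fasted Cnot3+/- liver. Its fed and fasted wild-type values overlapped, and the difference of -0.25 (SE 0.22, interval -0.76 to 0.26, adjusted p = 0.622) became 0.05 without fed replicate 2. Gata4, which opens liver genes in the embryo and in adult liver is also made by sinusoidal endothelial and stellate cells, read 7.89 and 8.62 fed, 7.87 and 7.63 fasted wild-type, and 7.24 and 7.62 Cnot3+/-. The groups were ordered fed, fasted wild-type, fasted Cnot3+/-, and neighbours in that order were nearly touching. The fasting difference was -0.51 (SE 0.25, interval -1.09 to 0.08, adjusted p = 0.338), and it ran from -0.87 without fed replicate 1 to -0.14 without fed replicate 2. The dimmer Gata4 probe set, close to the array medians at 5.72 and 6.22 fed, 5.67 and 5.89 fasted wild-type and 4.82 and 5.67 Cnot3+/-, was lowest on the same Cnot3+/- array.

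Prox1, which restrains the nuclear receptors Hnf4a and Nr5a2 and marks lymphatic endothelium outside the liver, was the exception in direction. Its main probe set read 8.00 and 8.78 in fed and 8.61 and 8.49 in fasted wild-type liver. The fasted wild-type values lay within the fed range, and the fasting difference was 0.16 (SE 0.24, interval -0.39 to 0.72, adjusted p = 0.793). The sign turned to -0.23 when fed replicate 1 was left out, and leaving out fed replicate 2 gave 0.55.

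**Figure D2:**
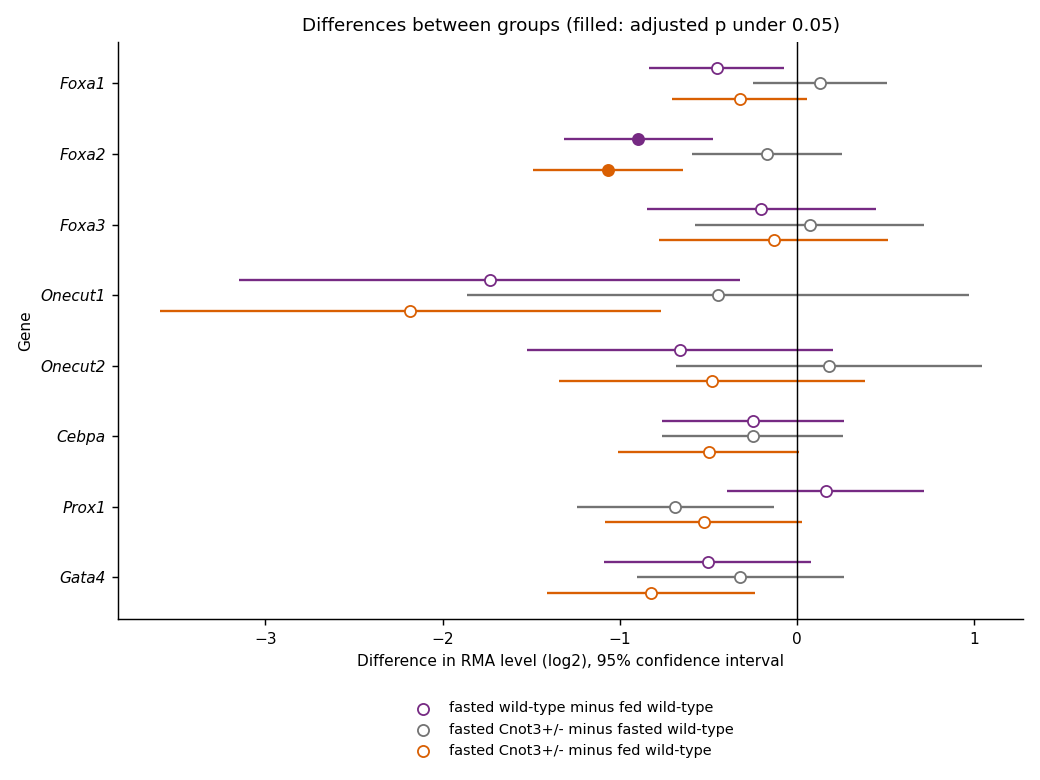
Difference in RMA level (log2, horizontal axis) with its 95% confidence interval for each factor in the 3 comparisons; filled points have an adjusted p under 0.05. Foxa2 is filled for both comparisons with fed liver (-0.89 and -1.07), and no factor is filled between the fasted genotypes (grey).

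Between the fasted genotypes none of the 8 factors passed the test. limma called 0 of the 8 factors and 0% of all genes, and 1 factor, Prox1, had an unadjusted p under 0.05, as did 5.56% of all genes. Prox1 read 8.61 and 8.49 in fasted wild-type and 7.90 and 7.83 in fasted Cnot3+/- liver on its main probe set, a difference of -0.69 (SE 0.24, interval -1.24 to -0.13, adjusted p = 0.863). Both Cnot3+/- arrays were lower there, but the other probe sets did not follow. One read 8.55 and 7.94 in wild-type and 8.70 and 8.15 in Cnot3+/- liver (difference 0.18), and the other 7.58 and 7.65 against 8.19 and 7.44 (difference 0.20). Gata4 was the other factor whose fasted groups did not overlap on its main probe set (difference -0.32, interval -0.91 to 0.27); 18.5% of all genes had Cnot3+/- values wholly below wild-type.

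The remaining genotype differences were 0.13 for Foxa1 (interval -0.25 to 0.51), -0.17 for Foxa2 (-0.59 to 0.25) and 0.07 for Foxa3 (-0.58 to 0.72). Onecut1 differed by -0.45 (-1.86 to 0.97), Onecut2 by 0.18 (-0.68 to 1.04) and Cebpa by -0.25 (-0.76 to 0.26). These are main probe sets. The other Onecut1 probe set differed by -1.04 (-2.67 to 0.59), with its Cnot3+/- values wholly below wild-type, and the other Onecut2 probe sets by 0.07 and 0.28. The interval was narrowest for Foxa1 and widest for Onecut1, and none of them shows that the genotypes are alike.

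Against fed wild-type liver, fasted Cnot3+/- liver differed in feeding and genotype at once, and these cannot be told apart. It shares its fed arrays with the wild-type fasting comparison, so the values of both are given side by side and not as support for each other. Foxa2 fell by 1.07 (SE 0.18, adjusted p = 0.0164), to 47.7% of the fed level, beside -0.89 in wild-type. It was the 1 factor called of 8, where 7.56% of all genes were called (3.68% lower and 3.88% higher). With fed replicate 2 left out Foxa2 was no longer called (adjusted p = 0.0782), and the same held with Cnot3+/- replicate 1 (0.06) or 2 (0.058) left out. Onecut1 differed by -2.18 (SE 0.60, adjusted p = 0.0784), beside -1.73. It passed after arrays were centred on the brighter genes (adjusted p = 0.0474) and without fed replicate 1 (-3.23, adjusted p = 0.0106). Gata4 differed by -0.82 (SE 0.25, adjusted p = 0.104), beside -0.51, and Cebpa by -0.50 (adjusted p = 0.248), beside -0.25. The main Prox1 probe set differed by -0.53 (adjusted p = 0.26), beside 0.16, whereas its other probe sets ran the opposite way, at 0.34 and 0.49. An unadjusted p under 0.05 was found for 3 of the 8, Foxa2, Onecut1 and Gata4, and for 21.3% of all genes. In 6 of the 8 the Cnot3+/- values lay wholly below the fed values, as in 23.4% of all genes. With fed replicate 1 left out 4 factors were called, Foxa2, Onecut1, Gata4 and Prox1 (its main probe set), where 4.08% of all genes were. With fed replicate 2 left out 0 were, against 3.28% of all genes.

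**Figure D3:**
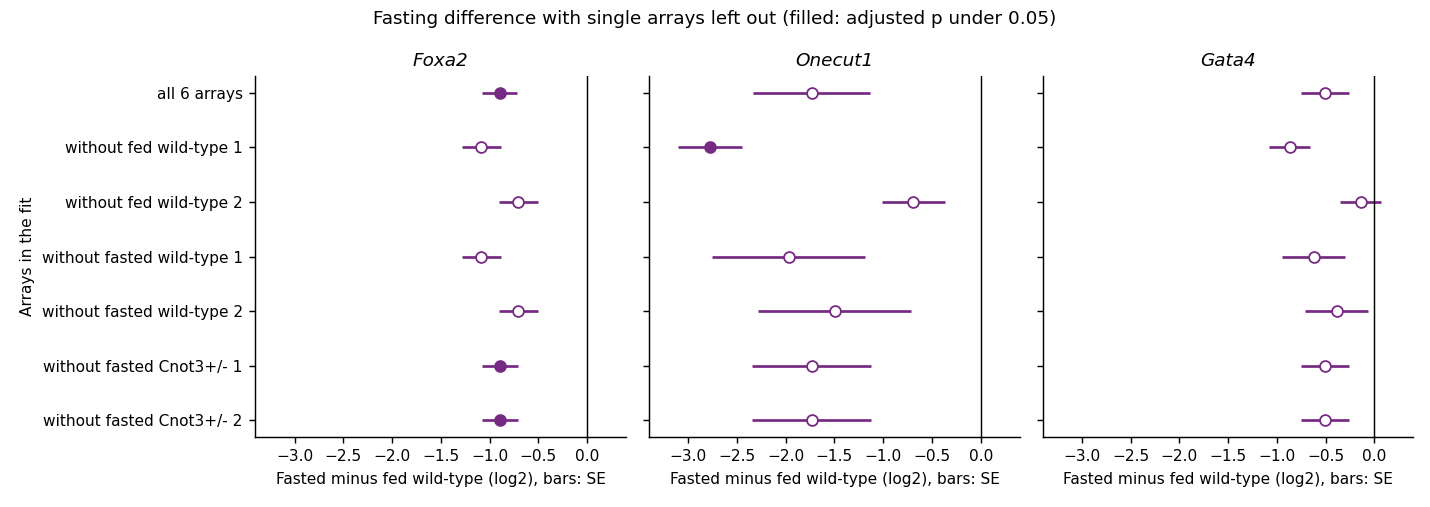
Fasting difference in wild-type liver (log2, horizontal axis; bars are SE) of Foxa2, Onecut1 and Gata4 with all 6 arrays and with each array left out. The Foxa2 call (filled) is lost without any 1 of the 4 wild-type arrays, and Onecut1 moves from -2.78 without fed replicate 1 to -0.69 without fed replicate 2.

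The fed arrays themselves differed at these genes. All 8 factors, and all 14 of their probe sets, were higher on fed replicate 2 than on fed replicate 1, where 50.9% of all genes and 60.2% of genes brighter than the median gene were. The factors share these 2 arrays, so they are not 8 separate observations. The gap was 2.09 for Onecut1, and only 10 of the 18193 genes had a larger one in either direction. It was 0.95 for Foxa3, 0.78 for Prox1, 0.74 for Onecut2, 0.73 for Gata4, 0.59 for Cebpa, 0.38 for Foxa2 and 0.36 for Foxa1. Gaps as large as that of Foxa2 were seen in 11.9% of genes and as large as that of Foxa3 in 1.05%. Between the fasted wild-type arrays 1 of the 8 factors was higher on replicate 2, where 54.3% of all genes and 60.8% of the brighter genes were. Between the Cnot3+/- arrays 3 were, beside 56.4% of all genes and 53.1% of the brighter genes.

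Other genes moved between the same fed arrays. Igfbp1, a secreted protein whose gene insulin represses, was at 12.26 on the first fed array and 8.33 on the second, the opposite order to the factors. Cebpd, a stress-induced C/EBP protein, read 8.80 and 7.36, and the forkhead gene Foxq1 9.41 and 7.55. Among cholangiocyte markers, 7 of 10 measured, the list mean was 5.33 on the first and 5.52 on the second, and 4 of the 7 lay at or under the array medians. Sox9 read 5.93 and 6.91 and Krt19 6.16 and 6.41. Only these 2 of the 7 are given here, and they do not stand for the list. The part of these differences in the levels of the 8 factors was not tested.

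**Figure D4:**
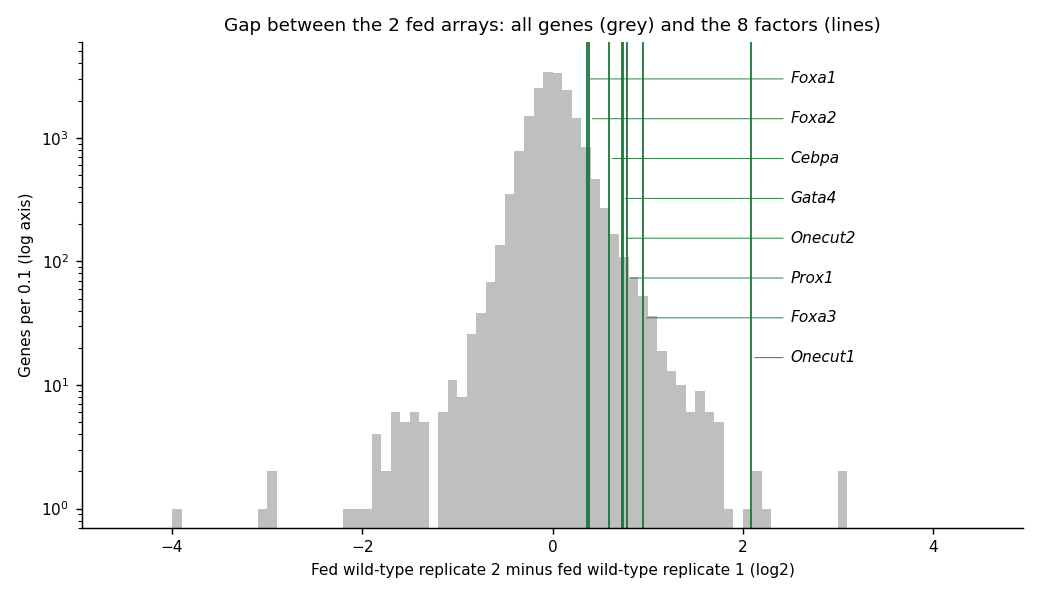
Gap between the fed arrays (replicate 2 minus replicate 1, log2, horizontal axis) for 18193 genes, as genes per bin of 0.1 on a log axis (grey), with a green line for each factor. All 8 lines lie to the right of 0, from 0.36 for Foxa1 to 2.09 for Onecut1.

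The rest of the liver's transcription factor network moved both ways on fasting. Of 33 listed factors, 31 were measured: 2 fell, 5 rose and 24 did not pass, where 3.15% of all genes fell and 1.87% rose, with a median of 0.10 against 0.02 for all genes. Hhex, a homeodomain factor of the liver bud, fell from 11.69 and 11.38 to 10.51 and 10.42 (log2 -1.06, SE 0.14, adjusted p = 0.0106). Mlxipl, the glucose-responsive factor ChREBP, was the other that fell (-1.46, SE 0.29, adjusted p = 0.036), and its adjusted p reached 0.199 with single arrays left out; it is named because the count is small and was chosen with its values known. Atf5, a stress-responsive leucine zipper factor abundant in liver, rose from 10.78 and 10.74 to 11.81 and 11.93 (1.11, SE 0.15, adjusted p = 0.0106). Creb3l3, a membrane-bound factor that fasting is known to activate, rose by 0.96 (SE 0.13), the drug-sensing nuclear receptor Nr1i3 by 0.86 (SE 0.12), the corepressor Nr0b2 by 1.07 (SE 0.16) and Cebpd by 2.23 (SE 0.42, adjusted p = 0.0305). With single arrays left out, 5 and 3 of the 31 were called without the first and second fed array, and 1 and 0 without the first and second fasted wild-type array. In the same 4 fits 2.52%, 1.58%, 0.753% and 1.06% of all genes were called. None of the 31 passed between the fasted genotypes (smallest adjusted p = 0.863).

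**Figure D5:**
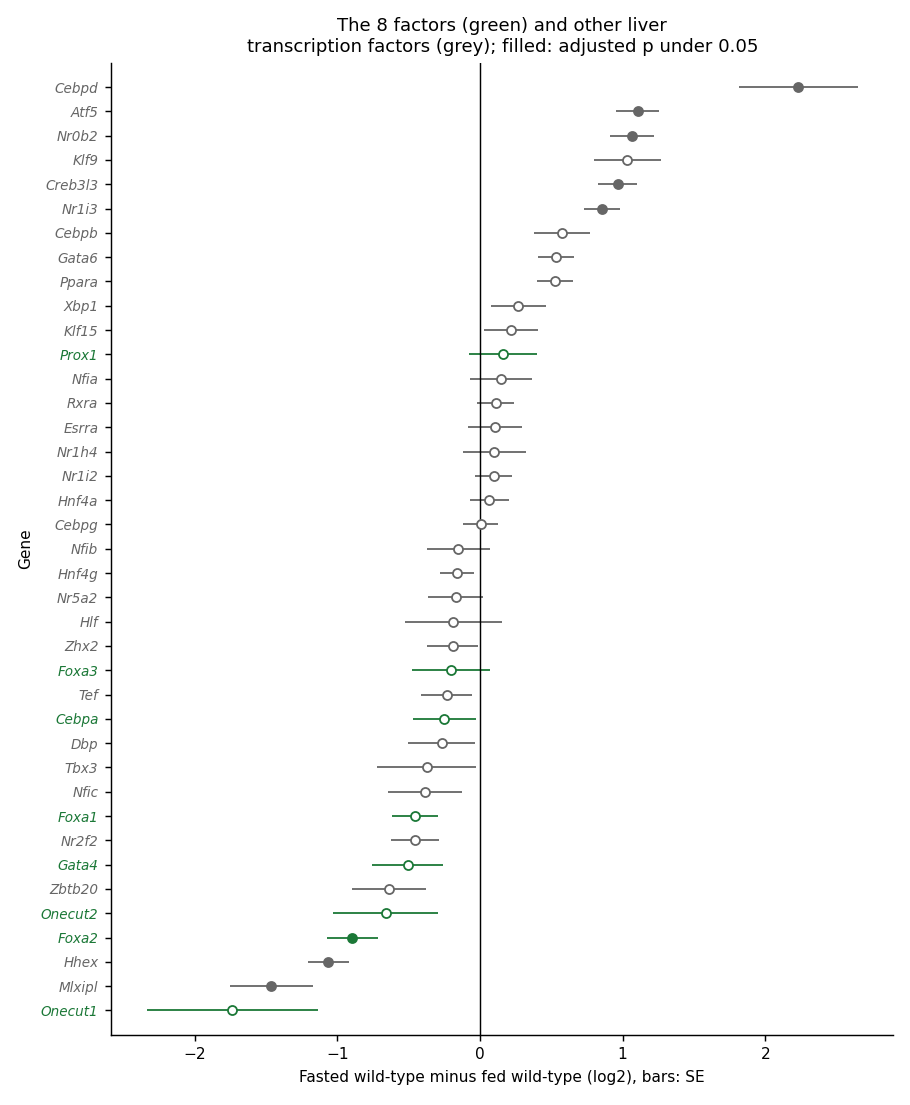
Fasting difference in wild-type liver (log2, horizontal axis; bars are SE) for the 8 factors (green) and 31 other liver transcription factors (grey), ordered by size; filled points have an adjusted p under 0.05. Onecut1 stands at the bottom with a wide bar and is not filled, while Foxa2, Hhex and Mlxipl are the filled points on the left.

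The nuclear receptors that Prox1 binds did not pass the test. Hnf4a read 13.19 and 12.94 fed and 13.23 and 13.03 fasted (log2 0.07, SE 0.14, adjusted p = 0.866), and Nr5a2 differed by -0.17 (SE 0.19, adjusted p = 0.723); both were picked for their link to Prox1 with their values known. Among listed family relatives of the 8 factors, 30 of 31 measured, Cebpd was the 1 gene that passed on fasting, and it also stands in the network list. Cebpd was not called with the mean over its probe sets (1.12, adjusted p = 0.0578) or without either fasted wild-type array (adjusted p = 0.168 and 0.148), and its difference was 1.51 without fed replicate 2. Gata6 (0.53, adjusted p = 0.0635), Cebpb (0.58, adjusted p = 0.165), Foxk2 (-0.36, adjusted p = 0.168) and Foxq1 (-1.46, adjusted p = 0.179) followed in order of p and did not pass. Foxq1 and Cebpb moved with the fed arrays. Foxq1 passed at -2.39 (adjusted p = 0.0136) with the second left out and was -0.53 with the first left out. Cebpb passed at 0.88 (adjusted p = 0.0429) with the first left out and was 0.27 with the second left out.

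None of 14 measured cofactors passed on fasting. The smallest p values belonged to members of the Groucho family and to Trib1. Foxa proteins recruit some Groucho proteins as corepressors, and Trib1 targets Cebpa protein for degradation. Tle5 differed by -0.48 (adjusted p = 0.0907), Trib1 by 0.46 (0.113), Tle4 by -0.56 (0.143), Tle2 by -0.46 (0.379) and Tle3 by -0.51 (0.425). Tle3 passed at -1.02 (adjusted p = 0.0452) with the first fed array left out and was -0.0042 with the second left out, and Tle2 lay between -0.77 and -0.14 over the fits that left out 1 array. Against fed liver, fasted Cnot3+/- liver had lower Tle5 (-0.67, adjusted p = 0.026) and Tle4 (-0.78, adjusted p = 0.045), but with single arrays left out Tle5 was called in 1 of 6 fits and Tle4 in 0 of 6.

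None of the textbook products of hepatocytes passed beside the fall of Foxa2. Of 27 measured, 0 passed on fasting in limma's test, with a median of 0.06 against 0.02 for all genes. Cyp7a1, which starts bile acid synthesis, differed by -2.89 (SE 0.65, adjusted p = 0.052), Otc of the urea cycle by -0.47 (adjusted p = 0.142), Apob by 0.69 (adjusted p = 0.156), Igfbp1 by 2.94 (adjusted p = 0.189) and the glucose transporter Slc2a2 by -0.45 (adjusted p = 0.199). Igfbp1 passed at 4.91 (adjusted p = 0.0048) with the first fed array left out and was 0.98 with the second left out. Over the fits that left out 1 array Apob lay between 0.33 and 1.05 and Slc2a2 between -0.60 and -0.30. Otc passed without probe sets shared between transcripts (-0.93, adjusted p = 0.0239), and Cyp7a1 passed in some settings, such as with a variance trend (adjusted p = 0.0376) or without fasted wild-type replicate 2 (-3.83, adjusted p = 0.0476), while without fasted wild-type replicate 1 it was -1.96. In fasted Cnot3+/- against fed liver Otc (-0.72, adjusted p = 0.032) and Slc2a2 (-0.74, adjusted p = 0.0401) were lower, and were called in 1 of 6 and 0 of 6 fits with single arrays left out.

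Some markers of other liver cells moved on fasting beside Foxa2 and the uncalled factors. Of 10 stellate cell markers 3 fell and 1 rose, and the list mean was 8.20 to 8.27 on the fed, 7.79 to 7.85 on the fasted wild-type and 7.81 to 8.07 on the Cnot3+/- arrays. Dcn was the 1 that rose (0.61). On fasting 4 of the 10 had positive differences, and the median was -0.28 against 0.02 for all genes. Lrat fell by 1.20, Col3a1 by 2.32 and Col1a1, which lay under the array medians, by 0.65; the adjusted p rose to 0.0503, 0.0973 and 0.18 at most with single arrays left out. Of 10 sinusoidal endothelial markers 1 passed, Lyve1, which rose by 1.58 (adjusted p at most 0.053 with single arrays left out); the list mean was 8.34 to 8.38 fed, 8.54 to 8.56 fasted wild-type and 8.18 to 8.53 Cnot3+/-. On fasting 4 of the 10 sinusoidal markers had negative differences, and their median was 0.05 against 0.02 for all genes. Macrophage markers, 10 of 10 measured, had means of 8.93 to 9.05 fed, 9.31 to 9.57 fasted wild-type and 9.69 to 10.04 Cnot3+/-. None passed the fasting test and 5 were called higher in Cnot3+/- against fed liver, where 3.88% of all genes were. All 10 macrophage markers had positive differences in each of the 3 comparisons. Their median was 0.40 on fasting, 0.44 between the fasted genotypes and 0.80 for both together. The medians over all genes were 0.02, -0.002 and 0.003. How the 5 calls fared with single arrays left out is not given here. Of 7 measured cholangiocyte markers 0 passed; means ran from 5.33 to 5.52 fed, 5.26 to 5.47 fasted wild-type and 5.24 to 5.35 Cnot3+/-. Krt7, Cftr, Cldn7 and Muc1 lay under the array medians. The lymphatic list, which also marks cells that make Prox1, had means of 6.94 to 7.004 fed, 7.31 to 7.39 fasted wild-type and 7.37 to 7.44 Cnot3+/-. Lyve1 is also in that list, and without it the means of the other 4 genes were 6.91 to 7.04, 7.02 to 7.08 and 7.037 to 7.04. Exocrine pancreas markers averaged 5.31 to 5.67 and intestinal markers 6.41 to 6.88 over the 6 arrays. At or under the array medians lay 5 of the 6 measured pancreas genes and 4 of the 6 measured intestinal genes. In each of these lists 1 of 6 genes passed on fasting: Cela1 fell by 1.45, while 4 of the 6 pancreas genes had positive differences and their median was 0.19. Lgals4 rose by 1.60, and by 1.45 to 1.75 with single arrays left out. That call was lost in 3 of these fits, each of which left out a wild-type array. Leaving out a Cnot3+/- array removes none of the arrays compared here. The part of these cells in the factors' levels was not tested.

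The genes whose profiles lay nearest to a factor were found for the 5 factors whose group means spanned at least 0.5, as the root mean square difference between profiles over the 6 arrays after each was centred on its own mean, among 9088 genes brighter than the median gene. Nearest to Foxa2 were Aldh1b1 (0.087 log2 units), Snrnp25 (0.10) and Spc24 (0.11). Nearest to Onecut1 were S1pr1 (0.30), Tsc22d1 (0.44) and Arhgap26 (0.45). All of them read higher on fed replicate 2, S1pr1 at 9.68 against 8.59. That order follows from choosing genes near a profile with a wide gap between the fed arrays, and is no separate observation. Onecut2 had Pxylp1, Socs4 and Neo1 (0.10 to 0.13), Gata4 had B4galt5, Dnaja4 and Dynll1 (0.081 to 0.13), and Prox1 had Zscan22, Pnkd and Chst13 (0.15 to 0.17). For Prox1 this is the profile of its main probe set only. Its other probe sets spanned 0.34 and 0.49 and ran the opposite way between the fasted genotypes. With 6 arrays many genes can lie this near, and nothing is said of shared control.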

How the data were processed

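Per the labels' protocols, labelled cRNA from each liver sample was hybridised to its own Affymetrix array. The submitters' processing notes name RMA, with no version; the deposited values are its log2 levels, 1 per probe set. They were used without further normalisation. Of 45101 probe sets, 64 are controls and 34945 name 1 gene in the platform annotation, with symbols updated by gene ID.

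All 18193 genes were tested with limma 3.58.1 (R 4.3.3): 1 fit of 6 arrays with 3 group means, moderated t statistics (prior df 4.24 beside 3 residual), and p-values adjusted by Benjamini-Hochberg per comparison. SE and 95% intervals are moderated. P-values over all probe sets came from the same fit on 45037. The test was checked on simulated data. The factors, the lists and the rule for named genes (all 8 factors, up to 5 genes per list by fasting p, 3 nearest profiles) were chosen with earlier results of these data known. A comparison of the factors' proteins was not run, as no protein sequences were used here. Alternatives were a replicate block, variance trend and robust priors, cyclic loess, centring, other probe set rules, a level filter, fewer arrays, and each array left out. Promoter windows are RefSeq's on GRCm38.p6; figures used matplotlib 3.10.9.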

Additional observations from a re-analysis of the deposited data

How the results depend on the processing

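The fasting fall of Foxa2 kept its direction in every alternative run. Only cyclic loess, centring and leaving out a wild-type array could move its estimate of -0.89. Foxa2 has 1 probe set, and the other runs change only the spread or the genes tested, so their direction was fixed. The call was kept under the replicate block (adjusted p = 0.0443), variance trend, robust prior, cyclic loess and centring. Both probe set rules, the level filter and the 4 arrays compared alone also kept it. Outside the replicate block these adjusted p values ran from 0.0343 to 0.0485. Over all probe sets, an alternative chosen after seeing the data, the Foxa2 difference was -0.89 with an adjusted p of 0.0712. There 0 factors were called, and more features were tested. With single arrays left out, Foxa2 differed by -1.09 to -0.70 and 0 to 1 factors were called on fasting; without fed replicate 1 the 1 was Onecut1. Against fed liver, Foxa2 in fasted Cnot3+/- liver ran from -1.26 to -0.88 with 0 to 4 factors called, and with centred arrays 2 were called, Onecut1 (-2.22) being the addition.

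All genes called numbered 137 to 1033 on fasting, 0 to 2 for genotype and 597 to 929 for both together with single arrays left out, against 913, 0 and 1375, and 857 for both together on the 4 arrays compared alone. Directions that turned with single arrays left out were those of Cebpa (-0.54 to 0.047), Foxa3 (-0.68 to 0.27) and Prox1 (-0.23 to 0.55) on fasting, Foxa2 (-0.36 to 0.018) and Onecut2 (-0.31 to 0.67) for genotype, and Foxa3 (-0.61 to 0.34) and Onecut2 (-0.97 to 0.0088) for both together; the cause was not tested. Prox1 in Cnot3+/- against fed liver was 0.10 with the mean over its probe sets, which disagree. Replicate numbers pair no samples by the labels: gaps between replicates correlated across genes at 0.04 (fed with fasted wild-type), -0.01 (fed with Cnot3+/-) and 0.45 (between fasted groups), and the replicate block left the factors called at 1, 0 and 1. With 2 arrays a group, small differences may go undetected.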
